A study of Mus musculus with 24 samples.

Results

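The heat shock proteins and their co-chaperones in mouse *M. gastrocnemius* were compared between 12 Hypox mice, which breathed 12% oxygen for 6 h, and 12 Norm mice kept at 20.9% oxygen. Members were the genes whose name on the array begins as *Hspa*, *Hspb*, *Hsp90*, *Dnaja*, *Dnajb*, *Cct*, *Bag* or *Hsf* followed by a number, together with *Hspd1*, *Hspe1* and *Hsph1*. The array carried 89 probes for 64 such genes. A gene was measured where the Cy5 signal of a probe averaged over 2 times its local background, which left 51 member genes among 9139 measured genes. The mice of both groups were male C57BL/6JOlaHsd that arrived at 10 weeks of age, ate a low-fat diet (10% of energy as fat) for 3 weeks and then a high-fat diet (40%) for 6 weeks. All of them were fasted and then exposed, and the muscle was taken directly after it. Each array held the RNA of 1 mouse, labelled with Cy5, against a Cy3-labelled pool of the RNA of all mice. This assignment follows the description of each sample. A few Hypox entries carry a dye name that differs from it.

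Chaperones bind unfolded or newly made proteins and help them fold, and most of them work in relays. HSP70 proteins (*Hspa*) cycle on and off their clients with ATP, J-domain proteins (*Dnaja*, *Dnajb*) deliver the clients and start the cycle, and BAG proteins and HSP110 (*Hsph1*) release them. HSP90 finishes kinases and receptors, the CCT ring encloses actin and tubulin, small heat shock proteins (*Hspb*) hold unfolding filaments in muscle, and HSF factors switch many of these genes on during stress.

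A level below is the log2 ratio of Cy5 over Cy3 after loess normalization, and a difference is Hypox minus Norm on that scale. A level of 0 need not be the level of a gene in the pool. *Bag1*, for example, lay above 0 throughout, at 0.34 to 1.37 in Norm and 0.00067 to 1.34 in Hypox. *Bag6* lay below 0 throughout, at -1.26 to -0.13 in Norm and -1.04 to -0.34 in Hypox. Levels of different genes are not comparable, because each is set against its own spot. P-values are from limma's moderated test over all 9139 genes, read at the unadjusted threshold of 0.05 that the study's methods use, with Benjamini-Hochberg adjusted values beside them. In whole muscle, fewer cells of a type and less RNA per cell cannot be told apart. Precision is limited by how many arrays there were.

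There were 6 slides, and 4 arrays (2 of either group) shared a slide. Mean Cy5 signals spanned 58.3 to 933 on the Norm arrays and 63.5 to 1014 on the Hypox arrays. The array of Hypox mouse 2 stood apart. When each array was divided into 272 blocks of 24 rows and 10 columns of spots, the median log2 ratio of its blocks ran from -0.68 to 1.51 across the slide surface, with an SD of 0.55 between blocks, against 0.084 to 0.26 on the other 23 arrays. On that array 7 of the 51 members had a level over 1, and all 7 lay in blocks whose median was 0.89 to 1.35. The values are therefore given as measured and again with the block median of each array subtracted, an alternative chosen after the values were seen.

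**Figure D1:**
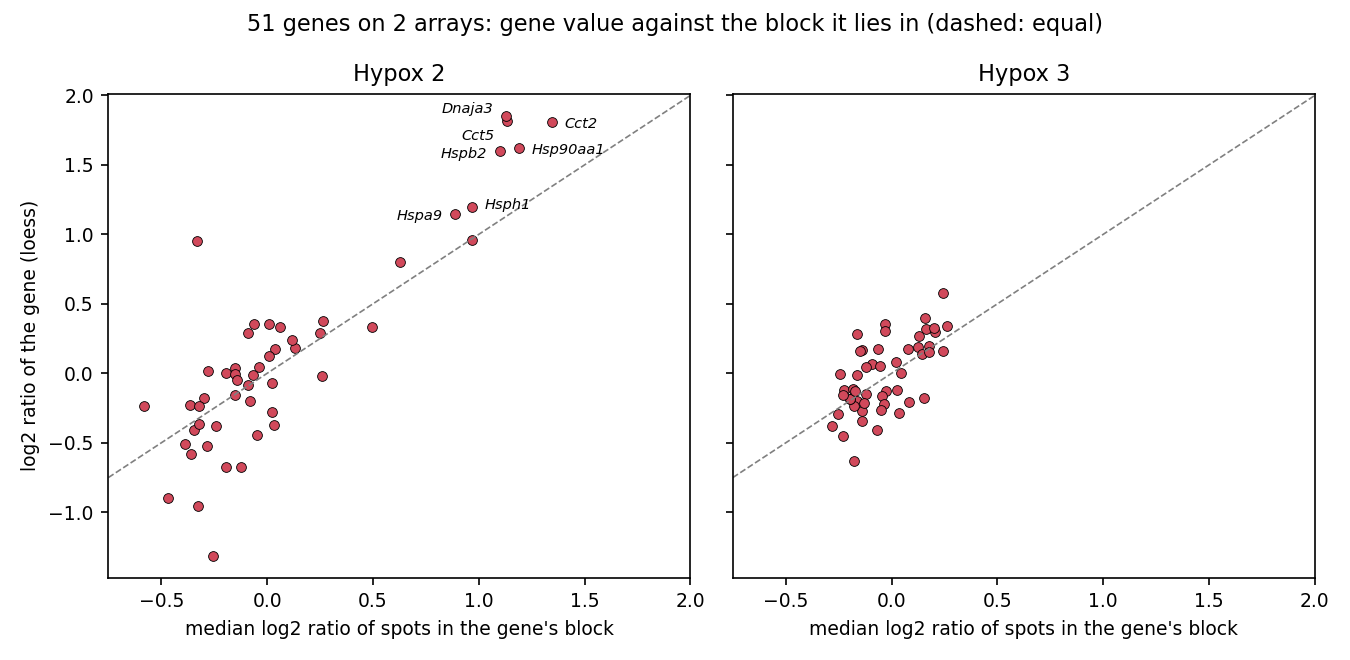
Log2 ratio of each of the 51 genes (vertical axis) against the median log2 ratio of the measured spots in its block (horizontal axis) on the arrays of Hypox mouse 2 and, for comparison, Hypox mouse 3, with 1 point a gene and a dashed line where the values are equal. The 7 named genes on the array of Hypox mouse 2 lay in blocks with medians from 0.89 to 1.35, while the blocks of the same genes on the array of Hypox mouse 3 had medians from -0.13 to 0.26.

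Of the 51 measured members, 34 had a higher and 17 a lower mean in Hypox, beside 5377 and 3762 of the 9139 genes. At P under 0.05, 6 members passed higher (*Cct2*, *Cct3*, *Hspa9*, *Hspa12b*, *Hspb2* and *Dnajb11*) and 1 passed lower (*Dnajb5*). That is 13.7% of the members, beside 12.2% of all genes measured, 7.17% higher and 5.07% lower. After adjustment 0.339% of all genes passed and 0 of the members, with the smallest adjusted p at 0.062 (*Cct3*). The median difference was 0.036 over the members and 0.029 over all genes, so that the share called and the median lay near those of the background. After subtraction of block medians, 6 members passed higher and 3 lower, 17.6% beside 17.8% of all genes, and 3 of them (*Hspa12b*, *Cct3* and *Dnajb5*) passed after adjustment, as did 2.49% of all genes. Here *Hspb2* no longer passed, and *Cct8*, *Dnajb4* and *Hsp90b1* passed in addition. The split of calls moved with the scaling, with 2 members called higher and 3 lower from the scanner's processed signals, and 3 and 1 both from the Cy5 channel alone and from the deposited values. Median centring in place of loess moved the median of all genes to 0.25 and that of the members to 0.35, gave all 51 a positive difference and called none, beside 32 of all genes at P under 0.05. Directions below are those after loess.

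**Figure D2:**
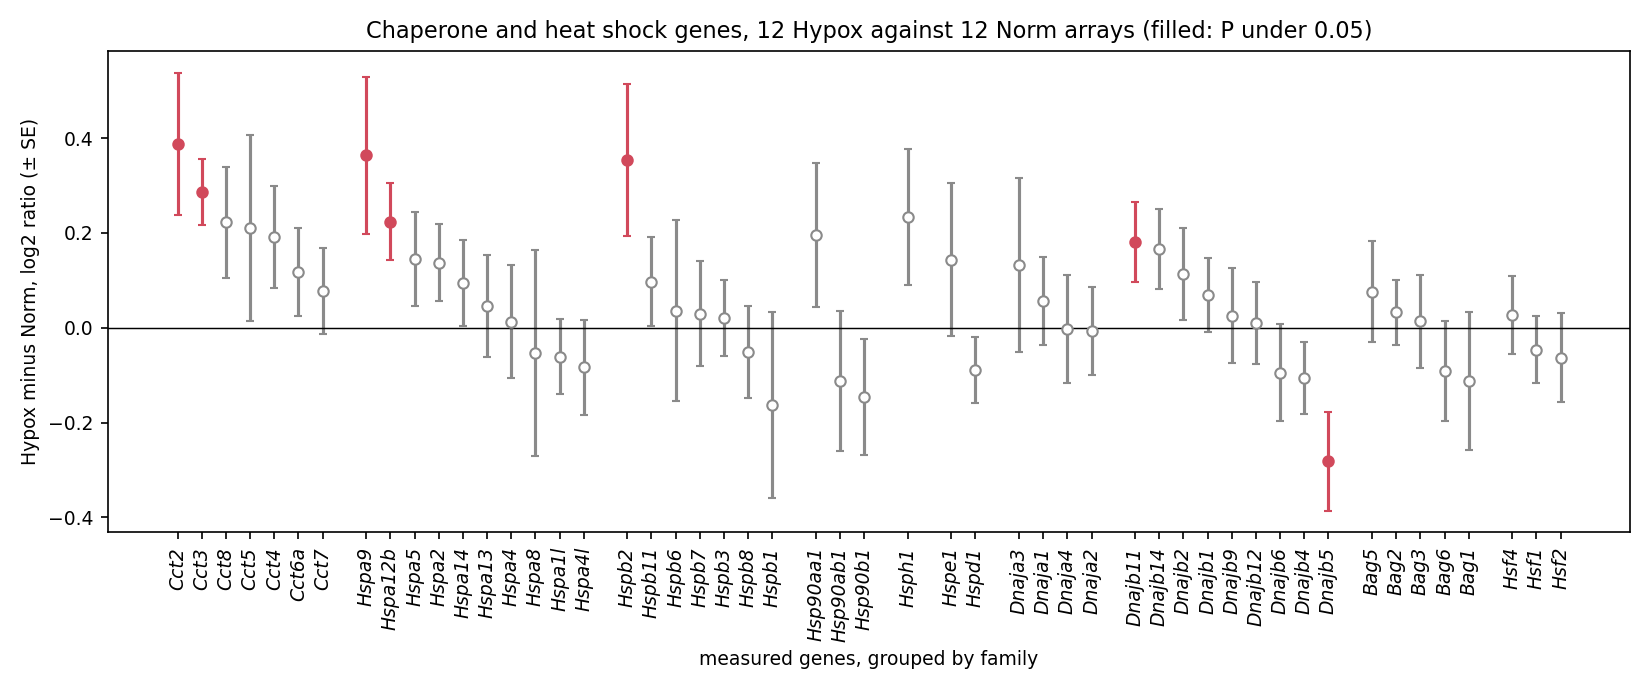
Difference of each of the 51 measured genes (Hypox minus Norm, log2 ratio, vertical axis), ordered by family, with bars of 1 standard error and filled points for P under 0.05. All 7 CCT subunits lay above 0 (6 of 7 from the scanner's processed signals or without slide 2), while the other families of more than 1 gene held members on either side.

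The CCT ring is the ATP-driven barrel of the cytosol in which actin and tubulin fold. All 7 measured subunits had a higher mean in Hypox after loess, and 6 of 7 from the scanner's processed signals, where *Cct7* was at -0.0048. Without slide 2 it was likewise 6 of 7, with *Cct7* at -0.0070. The differences ran from 0.078 for *Cct7* to 0.39 for *Cct2*, with a median of 0.21, and 2 of them passed the test. Once block medians were subtracted, the 7 remained higher with a median of 0.14, and 3 passed (*Cct2*, *Cct3* and *Cct8*). *Cct6b* and *Cct8l1* were not well above background on any array.

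*Cct3*, the gamma subunit, was read by a probe on chromosome 3 from 88124479 to 88124538 (mm9, plus strand), and *Cct2*, the beta subunit, by a probe on chromosome 10 from 116490137 to 116490196 on the minus strand. The first 30 of the 60 bases of each probe show which part of the transcript the values stand for.
Cct3: tggctcatgccttgacagaaaaatctaagg
Cct2: atcggcgatatggcagtactgggtataaca

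The Norm levels of *Cct3* ran from -0.62 to -0.035 with a median of -0.21, and the Hypox levels from -0.085 to 0.30 with a median of 0.018. The groups overlapped narrowly, as 8 of 12 Hypox mice exceeded the highest Norm mouse and all 12 the Norm median. Norm averaged -0.22 ± 0.17 (SD, n = 12) and Hypox averaged 0.065 ± 0.14 (SD, n = 12), a difference of 0.29 (SE 0.070, p = 0.000322, limma adjusted p = 0.062). *Cct3* was higher in Hypox on 6 of 6 slides, from 0.14 to 0.55, and passed with any 1 of the 24 arrays left out. With block medians subtracted the difference was 0.24 (p = 0.000898, limma adjusted p = 0.042).

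The Norm levels of *Cct2* ran from -0.36 to 0.0073 with a median of -0.13, and the Hypox levels from -0.31 to 1.81 with a median of 0.11. The highest Hypox value is that of mouse 2, far above the next at 0.52, and 7 of 12 Hypox mice exceeded the highest Norm mouse. The difference was 0.39 (SE 0.15, p = 0.0155, limma adjusted p = 0.27), again positive on 6 of 6 slides. Without Hypox mouse 2 it was 0.24 and still passed. The block around the *Cct2* spot of that array had a median of 1.35, and with block medians subtracted the highest Hypox level became 0.46, the SD in Hypox fell from 0.54 to 0.16 and the difference was 0.20 (p = 0.00177, limma adjusted p = 0.062).

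The other 5 subunits did not pass as measured. *Cct8* had a difference of 0.22 (p = 0.0682) and *Cct4* one of 0.19 (p = 0.0875), *Cct6a* one of 0.12 and *Cct7* one of 0.078. *Cct5*, the brightest of the family, had a difference of 0.21 (SE 0.20, p = 0.294) and the widest Hypox range, from -1.12 on the array of mouse 12 to 1.82 on that of mouse 2. Without mouse 2 its difference was 0.089 (p = 0.603). Slide 2 gave the largest positive difference for *Cct3*, *Cct4*, *Cct6a*, *Cct7* and *Cct8*, up to 1.00 for *Cct4*, and slide 3, which holds Hypox mouse 2, for *Cct2* and *Cct5*. Without slide 2, *Cct3* still passed (p = 0.00252) and *Cct2* was at 0.44, while *Cct8* was at 0.15, *Cct4* at 0.030, *Cct6a* at 0.014 and *Cct7* at -0.0070. *Tcp1*, the alpha subunit of the same ring, which the naming rule leaves out, had a difference of 0.29 (p = 0.0289) and one of 0.29 (p = 0.00364) with block medians subtracted.

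**Figure D3:**
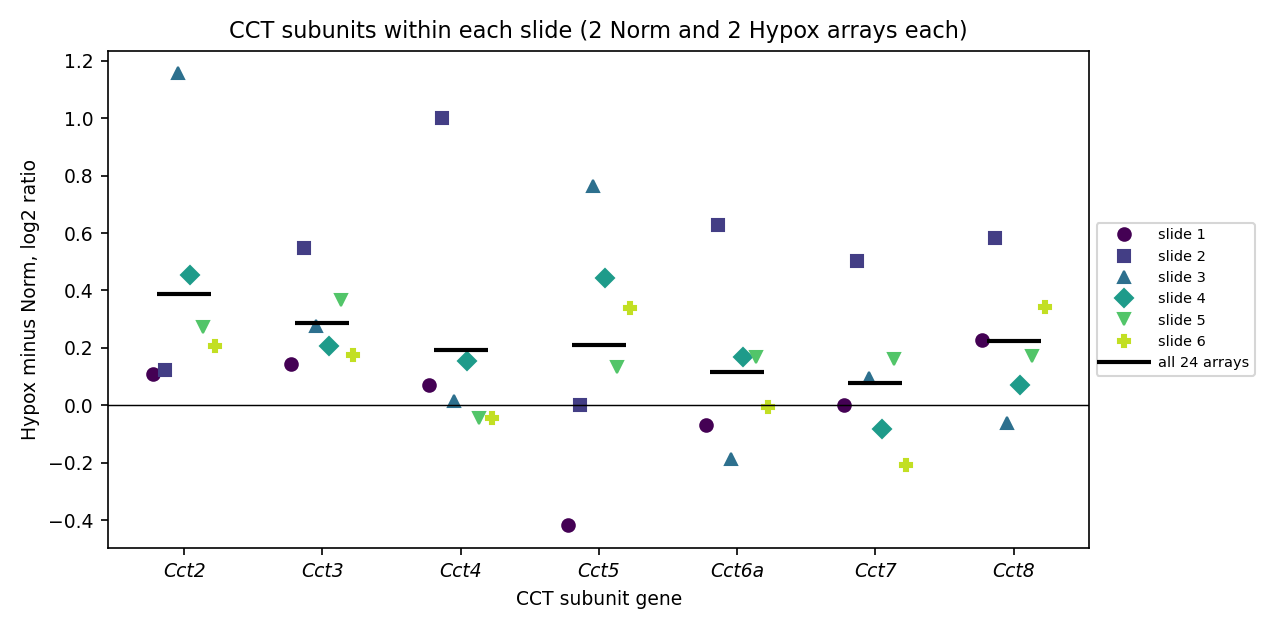
Difference of each CCT subunit within each of the 6 slides (mean of 2 Hypox minus mean of 2 Norm arrays, log2 ratio), with the difference over all 24 arrays as a black bar. *Cct2* and *Cct3* lay above 0 on 6 of 6 slides, and the other 5 subunits had at least 1 slide below 0.

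Prefoldin hands unfolded actin and tubulin to the CCT ring. Of its 6 subunits 4 had a higher and 2 a lower mean in Hypox, with a median of 0.14. *Pfdn5* passed at 0.51 (p = 0.00219) and *Vbp1* at 0.25 (p = 0.0301), neither of them after adjustment (smallest limma adjusted p 0.14). After subtraction of block medians *Pfdn5* was at 0.28 with a limma adjusted p of 0.017. Of the 6 subunits 3 then passed, beside 17.8% of all genes.

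Of the HSP70 genes 10 of 12 were measured, 7 with a higher and 3 with a lower mean in Hypox and a median of 0.070. The constitutive cytosolic *Hspa8* was the brightest member of all, at 564 times background, and did not pass. Norm levels spanned 0.096 to 1.92 around a median of 0.38, and Hypox levels 0.16 to 2.22 around 0.36, with a difference of -0.053 (SE 0.22, p = 0.808) that became 0.15 with the processed signals. Its other probes gave 0.026 and -0.15. The highest 2 values of either group all came from slide 1, the dimmest slide. The single probe of the stress-inducible *Hspa1a* was at 1.31 times background and well above it on 1 Norm and 0 Hypox arrays, so that no difference could be given. *Hspa5*, the HSP70 of the endoplasmic reticulum, had a difference of 0.15 (p = 0.153), and the other measured HSP70 genes that did not pass ranged from -0.084 for *Hspa4l* to 0.14 for *Hspa2*.

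*Hspa12b*, a distant HSP70 relative found mainly in endothelial cells, passed the test although it was dim, at 3.64 times background. Its probe lies on chromosome 2 from 130971553 to 130971612 (mm9, plus strand). Norm levels ran from -0.57 to -0.080 with a median of -0.21, and Hypox levels from -0.40 to 0.23 with a median of 0.034. The difference was 0.22 (SE 0.081, p = 0.00986, limma adjusted p = 0.24), with 8 of 12 Hypox mice above the highest Norm mouse. On 4 of 6 slides the sign was positive, with slide differences of -0.26 to 0.72. Without slide 2 the test did not pass (p = 0.127). The Hypox array lowest for *Hspa12b* was that of mouse 2, whose block had a median of -0.35. Once block medians were subtracted, the difference was 0.24 (p = 0.000333, limma adjusted p = 0.028) and positive on 5 of 6 slides. Of the 6 endothelial markers measured, 4 were higher in Hypox and 3 passed (*Esam* 0.28, *Cldn5* 0.30 and *Cdh5* 0.38), with a median of 0.23. *Kdr* (-0.15) and *Flt1* (-0.045) had a lower mean and did not pass. The summed Cy5 level of the 6 markers spanned 1607 to 2291 on Norm arrays and 1790 to 2333 on Hypox arrays. Their part in the difference of *Hspa12b* was not tested.

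*Hspa9* encodes mortalin, the HSP70 that pulls proteins into the mitochondrial matrix and folds them there. Its Norm levels ran from -0.41 to 0.28 with a median of -0.076, and its Hypox levels from -0.41 to 1.72 with a median of 0.11. Mouse 6 at 1.72 and mouse 2 at 1.15 were the only Hypox arrays above every Norm array, and the blocks around the *Hspa9* spot there had medians of 1.01 and 0.89. The difference was 0.36 (SE 0.17, p = 0.0366, limma adjusted p = 0.36). The call was lost with 7 of the 24 arrays left out in turn, Norm mice 1, 3, 6, 8 and 12 and Hypox mice 2 and 6, with p at most 0.0768 (without Hypox mouse 2), and with 5 of the 6 slides left out in turn. With block medians subtracted it was 0.21 (p = 0.0142), while the processed signals gave 0.18 (p = 0.32).

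The *Hspb* genes, grouped by name, held some of the brightest members, and of 8 on the array 7 were measured. Their median difference was 0.030, with 5 higher and 2 lower means in Hypox. *Hspb1* (HSP27), at 360 times background, spanned 0.0030 to 1.70 in Norm, with a median of 0.41, against -0.17 to 1.75 and 0.26 in Hypox. Its difference was -0.16 (SE 0.20, p = 0.412). As for *Hspa8*, its highest values came from slide 1, at 1.70 and 1.55 in Norm and 1.75 and 0.74 in Hypox. *Hspb6*, at 305 times background, had a difference of 0.036, and *Hspb3*, *Hspb7*, *Hspb8* and *Hspb11* lay between -0.051 and 0.097, none of which passed.

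*Hspb2*, a muscle protein that binds the myotonic dystrophy kinase, was the one small heat shock gene that passed. Its Norm levels ran from -0.31 to 0.58 with a median of 0.043, and its Hypox levels from -0.12 to 1.60 with a median of 0.40. The groups overlapped broadly, with 3 of 12 Hypox mice above the highest Norm mouse. The difference was 0.35 (SE 0.16, p = 0.0349, limma adjusted p = 0.36), positive on 5 of 6 slides. The highest values were those of mouse 2 (1.60, in a block with a median of 1.10) and mouse 6 (1.21, in a block with a median of 0.038). The call was lost with 7 of the 24 arrays left out in turn, Norm mice 1, 3, 7 and 9 and Hypox mice 2, 4 and 6, with p at most 0.0745 (without Hypox mouse 6). After subtraction of block medians the difference was 0.21 and did not pass (p = 0.105). *Cryab*, the alphaB-crystallin gene that lies head to head with *Hspb2* in the genome, had a difference of 0.0035 (SE 0.21, p = 0.987).

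The HSP90 genes were measured at all 3 loci and none passed. *Hsp90ab1*, the constitutive cytosolic form, had a difference of -0.11 (SE 0.15, p = 0.45), and *Hsp90aa1*, the inducible form, one of 0.20 (SE 0.15, p = 0.208) with Hypox mouse 2 at 1.62 and a difference of 0.094 (p = 0.46) without that mouse. *Hsp90b1*, the form of the endoplasmic reticulum known as GRP94, had one of -0.15 (SE 0.12, p = 0.246). Once block medians were subtracted, *Hsp90b1* had a difference of -0.18 (p = 0.00773, limma adjusted p = 0.12), lower on 5 of 6 slides, with Norm levels of -0.098 to 0.37 and Hypox levels of -0.48 to 0.24. Its SD in Hypox was 0.39 as measured and 0.17 with block medians subtracted. *Hsph1* (HSP110), the exchange factor of HSP70, had a difference of 0.23 (SE 0.14, p = 0.114) on its brighter probe and -0.045 (p = 0.567) on the dimmer one. Without Hypox mouse 2, at 1.20, the brighter probe gave 0.12 (p = 0.257).

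*Hspd1* and *Hspe1* encode the barrel and the lid of the mitochondrial chaperonin and are transcribed from opposite strands of one locus. The Norm levels of *Hspd1* spanned -0.094 to 0.38 (median 0.20), the Hypox levels -0.068 to 0.39 (median 0.019), with a difference of -0.090 (SE 0.070, p = 0.208). The brightest *Hspe1* probe had a difference of 0.14 (SE 0.16, p = 0.379), with Hypox mouse 12 at 1.76 and every other Hypox array at 0.40 or lower. Without mouse 12 it was -0.00085 (p = 0.993). The 3 probes of *Hspe1* gave 0.14, -0.0025 and 0.25, of which the last and dimmest passed (p = 0.0271). The levels of *Hspd1* and *Hspe1* across the 24 arrays, with the mean of each group on each slide removed, had r = 0.15 (exact permutation p = 0.39) and rho = 0.35 (exact permutation p = 0.22).

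The J-domain co-chaperones held 1 call in each direction. *Dnajb11*, which serves HSP70 in the endoplasmic reticulum, spanned -0.73 to -0.13 in Norm, with a median of -0.38, against -0.63 to 0.18 and -0.29 in Hypox. The groups overlapped over most of their range, with 4 of 12 Hypox mice above the highest Norm mouse. Its difference was 0.18 (SE 0.084, p = 0.0405, limma adjusted p = 0.38), positive on 6 of 6 slides, and it passed with 15 of the 24 arrays left out in turn. It did not pass without Norm mouse 2, 3, 7, 9 or 11 or Hypox mouse 2, 8, 9 or 11, with p at most 0.0814 (without Hypox mouse 2). With block medians subtracted the difference was 0.16 (p = 0.008, limma adjusted p = 0.12).

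*Dnajb5*, a J-domain protein known to bind a histone deacetylase in muscle cells, was the one member called lower. Its Norm levels ran from -0.56 to 0.52 with a median of 0.17, and its Hypox levels from -0.38 to 0.12 with a median of -0.18. All 12 Hypox arrays lay below the Norm median, but none below the lowest Norm array. The difference was -0.28 (SE 0.10, p = 0.0113, limma adjusted p = 0.25), lower on 4 of 6 slides, and it passed with any 1 array left out. After subtraction of block medians it was -0.28 (p = 0.00122, limma adjusted p = 0.0498) and lower on 5 of 6 slides. A second probe further along the gene, at 3.08 times background against 47.7 for the first, gave 0.14 (p = 0.0696), so that the mean of both was -0.070 (p = 0.315). Median centring gave 0.17 for the brighter probe, and the deposited values gave -0.011, which did not pass. The test also did not pass without slide 5 (p = 0.0639) or without slide 6. The first 30 bases of the probes are given because their values differ in sign. They lie on the plus strand of chromosome 4 (mm9) from 42971494 to 42971553 and from 42972193 to 42972252, and the dimmer one begins in a repeat of the letters agat.
Dnajb5, brighter probe: gggttcttaggttttctcactttgacaagc
Dnajb5, dimmer probe: agatagatagaataaagatagatagataca

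The other 7 measured *Dnajb* genes lay between -0.11 for *Dnajb4* and 0.17 for *Dnajb14*. *Dnajb1*, the partner of inducible HSP70, had a difference of 0.070. *Dnajb4* had a difference of -0.14 (p = 0.0225, limma adjusted p = 0.19) with block medians subtracted, lower on 6 of 6 slides, although it was read at 2.21 times background. Of the 4 *Dnaja* genes 2 had a higher and 2 a lower mean. *Dnaja3*, the mitochondrial partner of mortalin, was the most different of these at 0.13 (SE 0.18, p = 0.478), with mouse 2 at 1.86, and at -0.017 without that mouse.

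The BAG and HSF genes did not pass in either direction. The 5 measured BAG genes ranged from -0.11 for *Bag1*, the brightest at 139 times background, to 0.076 for *Bag5*, and *Bag6* had the smallest p (-0.090, p = 0.398). *Bag3*, which with *Hspb8* clears damaged filament proteins in muscle, had a difference of 0.013. The naming rule took in 6 *Hsf* genes by name alone, *Hsf2bp* among them. *Hsf1*, the main factor of the heat shock response, had a difference of -0.046 (SE 0.071, p = 0.52), *Hsf2* one of -0.063 (p = 0.505) and *Hsf4* one of 0.027. *Hsf2bp*, *Hsf3* and *Hsf5* were not measured. In all, 13 of the 64 members were not measured, and *Bag4*, *Cct6b*, *Cct8l1*, *Dnajb3*, *Dnajb7*, *Dnajb8*, *Dnajb13*, *Hspa12a* and *Hspb9* were among them, with their probes at 1.14 to 1.46 times background.

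**Figure D4:**
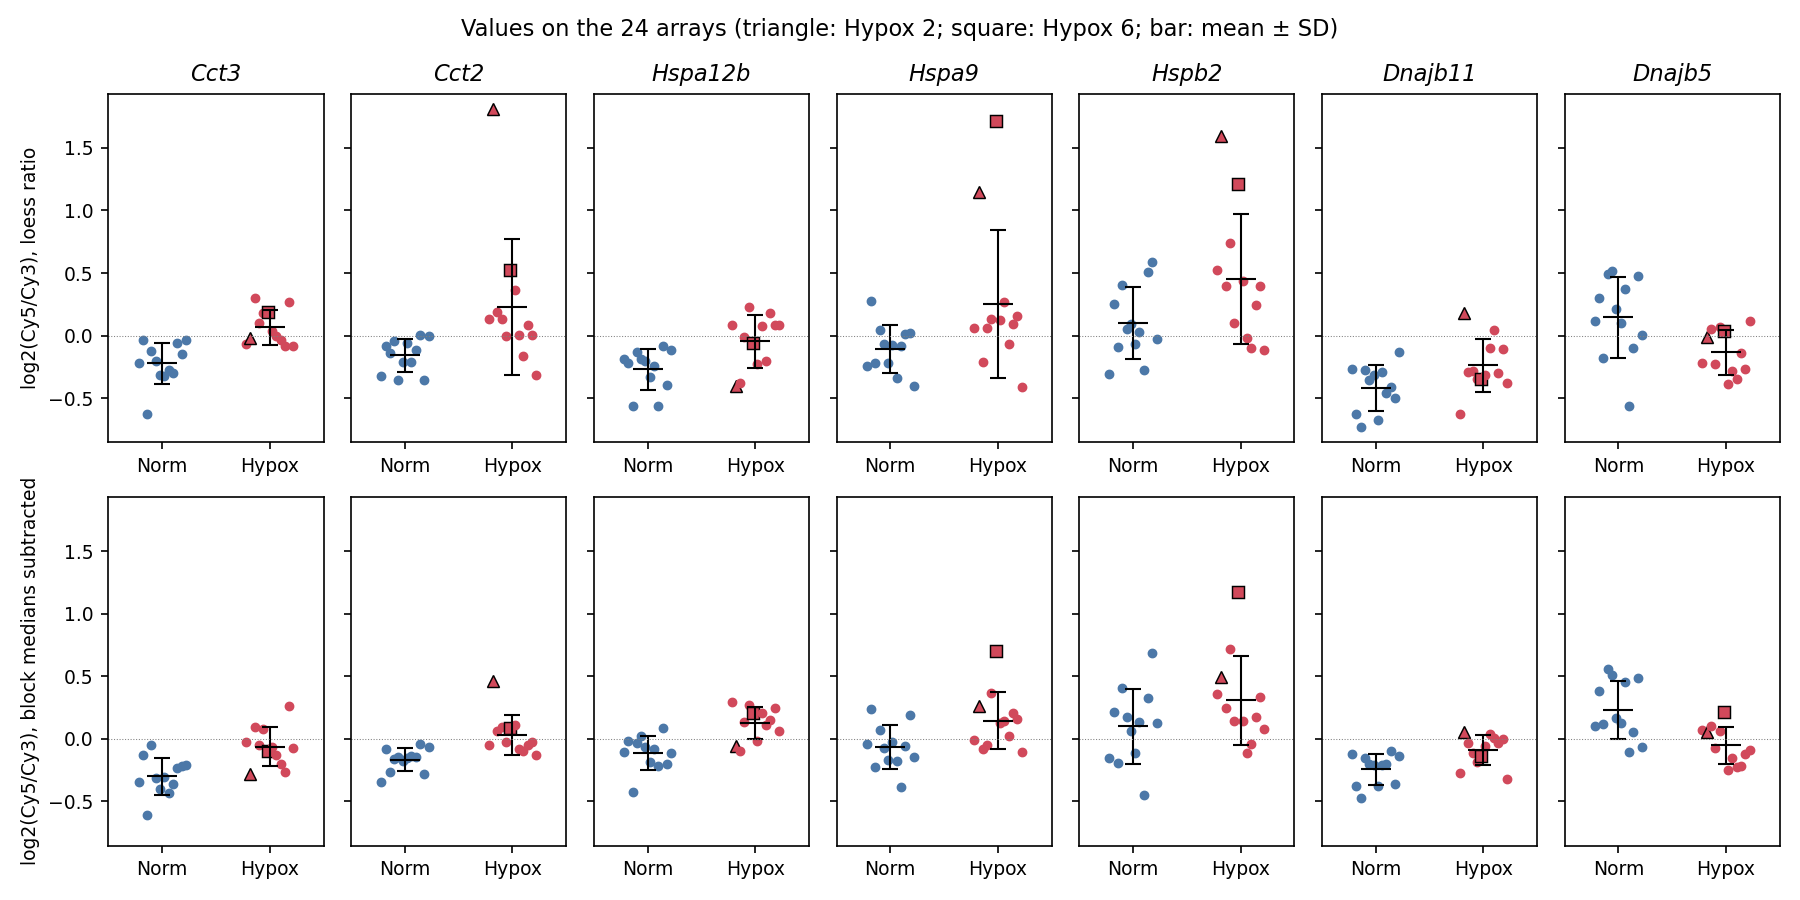
Level on each of the 24 arrays (log2 ratio of Cy5 over Cy3) of the 7 genes with P under 0.05, as loess ratios (top) and with block medians subtracted (bottom), with the mean ± SD (n = 12) of each group. The triangle and the square are Hypox mice 2 and 6, which hold the highest *Cct2* and *Hspa9* values of the top row at 1.81 and 1.72 and lie at 0.46 and 0.70 in the bottom row.

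Many chaperone promoters hold heat shock elements, in which inverted units of nGAAn bind HSF factors. RefSeq promoters (GRCm38.p6, from 250 bases before to 50 after a start) matched 42 of the 51 measured members. The other 9 were *Cct4*, *Hsf1*, *Hsf4*, *Hsp90aa1*, *Hsp90ab1*, *Hspa8*, *Hspa9*, *Hspa13* and *Hspb2*. The pair GAANNTTC or TTCNNGAA, searched on both strands, which read alike, was found in 15 of the 42 matched members (35.7%) and in 17.0% of 27025 genes. A run of 3 units, GAANNTTCNNGAA or TTCNNGAANNTTC, which overlaps those pairs, was found in 4 members (*Dnajb6*, *Hspd1*, *Hspe1* and *Hsph1*), 9.52%, beside 0.662% of all genes. The endoplasmic reticulum stress element was found in *Hspa5* and *Hsp90b1*, 4.76% of the members, beside 0.137%. The sequences of 5 members are given to show these motifs, in capitals, on the strand of each gene.
Hspe1: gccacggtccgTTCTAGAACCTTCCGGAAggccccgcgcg
Dnajb6: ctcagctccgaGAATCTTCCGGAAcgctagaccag
Hspb1: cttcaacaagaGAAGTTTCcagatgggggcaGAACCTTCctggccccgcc
Cct2: ccccaagtgaaGAAGTTTCtagcaggacct
Hspa5: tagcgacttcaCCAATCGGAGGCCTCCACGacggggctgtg

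These stretches lie on the plus strand of GRCm38.p6 for *Hspe1*, *Dnajb6*, *Hspb1* and *Hspa5* and on the minus strand for *Cct2*, at chr1:55088048-55088087 (*Hspe1*), chr5:29735841-29735875 (*Dnajb6*), chr5:135887791-135887840 (*Hspb1*), chr10:117063399-117063428 (*Cct2*) and chr2:34772014-34772054 (*Hspa5*). The *Hspe1* stretch lies between the start of *Hspe1* and a start of *Hspd1* on the other strand, which are 215 bases apart, so that the same elements precede both genes. The median difference was 0.020 over the 15 members with a pair and 0.070 over the 27 without, beside 0.029 over all genes. Of these members 1 and 4 passed the test, beside 12.2% of all genes. Whether the 2 sets differ was not tested. *Hspa9* and *Hspb2*, which also passed, had no matched promoter and are in neither set. *Hspa5* and *Hsp90b1*, which share the endoplasmic reticulum element, had differences of opposite sign, 0.15 and -0.15.

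Calls among the other chaperone genes stand beside 12.2% of all genes measured, or 17.8% with block medians subtracted. As measured, none of these other genes passed adjustment. Of 24 cytosolic partners 3 passed higher and 0 lower, with a median of 0.077. These were *Stip1* (0.31, p = 0.0162), which links HSP70 to HSP90, *Tcp1*, and *St13* (0.20, p = 0.0361), which steadies HSP70 on its client. Once block medians were subtracted, *St13* was at 0.040 (p = 0.591), while *Stip1* remained called at 0.18. Of the 12 mitochondrial folding factors and proteases 10 had a higher mean, and *Grpel1* (0.23, p = 0.00348), the exchange factor of mortalin, and *Clpx* (0.31, p = 0.0493), an unfoldase, passed. *Clpx* did not pass without Hypox mouse 2 (0.19, p = 0.0948). With block medians subtracted 5 of the 12 passed, all higher.

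Of 21 measured *Dnajc* genes 3 passed higher and 2 lower, beside 7.17% and 5.07% of all genes. *Dnajc15*, of the mitochondrial import machinery, was at 0.56 (p = 0.00235), *Dnajc8*, of the spliceosome, at 0.32 (p = 0.000849) and *Dnajc21*, of ribosome assembly, at -0.25 (p = 0.00226). As measured, none passed adjustment (smallest limma adjusted p 0.098). With block medians subtracted all 3 did, with limma adjusted p of 0.038, 0.029 and 0.034. *Dnajc30* (0.29) and *Dnajc28* (-0.20) also passed as measured, and *Dnajc30* did not without Hypox mouse 2 (p = 0.076). Of the 14 measured genes of endoplasmic reticulum folding and the unfolded protein response 1 passed, *Manf* (0.23, p = 0.0168), a secreted stress protein, and their median was 0.016.

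The tissue held its defining markers, with 12 of 12 skeletal muscle fiber genes measured, 5 of them higher and 7 lower in Hypox with a median of -0.15, and 1 called (*Mylpf*, 0.36). From the processed signals 8 of these were higher and 4 lower, with a median of 0.071. Slow fiber markers were higher in Hypox for 9 of 9 genes, with 2 called and a median of 0.34. All 6 Schwann cell markers were lower, 3 of them called, with a median of -0.17. Without Hypox mouse 2 there were 5 lower and 1 called, and with block medians subtracted 5 lower and 4 called. Of 6 adipocyte markers 5 were lower, with 2 called and a median of -0.18, and with block medians subtracted 6 were lower and 3 called. The summed levels of these lists overlapped between the groups, at 6732 to 41328 in Norm and 22373 to 30811 in Hypox for slow fibers and at 715 to 1143 and 586 to 981 for Schwann cells. Red blood cell (1 of 6 called, higher), lung epithelium (1 of 2 called, *Sftpc* at 0.81) and leukocyte markers (0 of 4) were also read. The calls of these lists and of the endothelial markers stand beside 12.2% of all genes, or 17.8% with block medians subtracted. The part of these cells in the member values was not tested.

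Levels of members within 5 classes (88 pairs) were correlated across the 24 arrays after the mean of each group on each slide was removed. By permutation of all residuals 11 pairs passed adjustment within their class. Since the residuals of the 2 arrays of a group on a slide mirror each other, the pairs were also tested by exact swaps within slides and groups, an alternative chosen after the values were seen, and 1 pair then passed. That pair was *Hspa9* with its partner *Dnaja3* (r = 0.77 and rho = 0.85, exact permutation p = 0.0024 for each, adjusted over 6 pairs 0.015). The highest *Hspa9* levels were those of mice 6 and 2, so the mirrored Hypox residuals of their slides were left out, a choice made after the values were seen. Without the Hypox arrays of slide 3 (mice 2 and 3) r was 0.61 (exact permutation p = 0.0049), without those of slide 4 (mice 6 and 10) it was 0.95, and without both pairs 0.86 (exact permutation p = 0.0098). After subtraction of block medians the r over all arrays was 0.47 (exact permutation p = 0.19). The next highest, *Hspb2* with *Hspb6* (r = 0.76, rho = 0.73), did not pass adjustment over its 15 pairs (exact permutation p = 0.0088 and 0.019, adjusted 0.13 and 0.29), and *Cct4* with *Cct7* (r = 0.66, rho = 0.68) did not over 21 pairs (exact permutation p = 0.022 and 0.016, adjusted 0.19 and 0.32).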

How the data were processed

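The authors deposited spot intensity values from Agilent Feature Extraction (for either dye a mean signal and a median of the local background), not normalized between arrays. They also deposited a table of normalized log2 values, made with GeneMaths XT. Its scale and its use of Cy3 are not stated, and the median of every column is equal. Control spots and flagged spots were left out. The mean signal was corrected with normexp (offset 50), log2 ratios were loess-normalized within arrays, and spots of a probe were averaged. Probes with a mean Cy5 over 2 times background and at most 4 missing arrays were kept. Each gene was represented by its brightest probe (mean log2 intensity). Of the 89 member probes, 83 were matched to RefSeq by accession and 6 by symbol or synonym. Hypox was compared with Norm by limma 3.58.1 (R 4.3.3) with no block, and p-values were adjusted over all genes by Benjamini-Hochberg. Replicates were separate mice.

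Genes were named by rule: each member with P under 0.05, the brightest and the lowest-P member of each family, the 3 largest differences, and at most 3 called genes of a partner list in each direction. Other members named, such as *Cct8*, *Dnajb4* and *Hsp90b1*, were chosen after their values were seen. The members and the lists were chosen with earlier results of these data known. The fit was tested on simulated data. Correlations used 100000 permutations and, as an exact test, 4096 swaps in Python 3.11.15. Alternatives were median centring, the scanner's processed signals, Cy5 without Cy3, the methods' t-test, the deposited values, filters at 1.5 and 4 times background or none, the mean of a gene's probes, slide and replicate block, and leaving out each slide or array. Subtraction of the median log2 ratio in blocks of 24 rows and 10 columns of spots (median 60 measured spots) was added after the values were seen.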

Additional observations from a re-analysis of the deposited data

How the results depend on the processing

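The count of members called higher, 6 beside 655 of all genes, was 0 with median centring and 2 with the processed signals. Of all genes these called 32 and 342 higher. From Cy5 alone and from the deposited values the count of members was 3, beside 368 and 276 of all genes. By the methods' t-test it was 4, with 1 lower, 9.8% of the members beside 12.2% of all genes. Without slide 2, 3 or 4 it was 4, beside 560, 544 and 459 of all genes, and without slide 1 it was 8, beside 801. The count called lower, 1 beside 463 of all genes, was 0 with median centring, 3 with the processed signals and 0 with the mean of a gene's probes. Of all genes these called 0, 674 and 459 lower. The count of members was 3 with block medians subtracted, and 0 without slide 5 and without slide 6, beside 836, 319 and 456 of all genes. With the deposited values it was 1, which was *Dnajb4* (-0.27) and not *Dnajb5* (-0.011). Adjusted calls, 0, became 3 with block medians subtracted. Leaving out 1 array at a time gave 4 to 8 higher, 1 to 1 lower and 0 to 1 adjusted calls, the 1 without Norm mouse 12. Of all genes 569 to 801 were then called higher. Correlated pairs, 11 by permutation of residuals, were 74 with median centring, 20 with the processed signals, 17 with Cy5 alone, 26 with the deposited values and 1 by exact swaps. The cause of these shifts was not tested. Block medians and exact swaps were chosen after seeing the data.

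Genes that did not pass, and *Dnajb5*, changed sign under some settings. Median centring gave *Bag1* 0.39, *Bag6* 0.36, *Dnajb5* 0.17, *Hsf1* 0.24, *Hsf2* 0.096, *Hsp90ab1* 0.47, *Hspa8* 0.62, *Hspb1* 0.47 and *Hspd1* 0.36. The deposited values gave *Bag1* 0.21, *Bag6* 0.22, *Hsf1* 0.079, *Hsp90ab1* 0.31, *Hspa8* 0.43, *Hspb1* 0.29 and *Hspd1* 0.16, Cy5 alone gave *Hsp90ab1* 0.021, *Hspa8* 0.096 and *Hspb1* 0.031, and the processed signals gave *Hsp90aa1* -0.063 and *Hspa8* 0.15. *Dnaja3* was at -0.014 without slide 3 and -0.017 without Hypox mouse 2, and *Hspa8* at 0.067 without Norm mouse 4 and 0.037 without Norm mouse 11.

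With the replicate number as a block, 5 members were called higher and 1 lower, and 1194 of all genes in place of 1118. Same-numbered arrays had correlated deviations from -0.20 to 0.52 (median 0.0086), over 0.1 in 3 of 12 pairs, so that the numbers gave no pairing. The dimmest slide had a mean Cy5 of 58.3 to 102, which limits what its arrays show of dim genes. Some of the brightest members also had high levels on it. *Hspa8* was at 1.05 to 2.22 and *Hspb1* at 0.74 to 1.75 there, while *Hspb6* ran from -0.84 to 1.01. The cause was not tested.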
